A study of Mus musculus with 12 samples.

Results

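Accessible chromatin of mouse leukaemias driven by 2 MLL fusion proteins was set against that of wild-type marrow. The tested libraries were 3 of MLL-AF9 (MA9) and 3 of MLL-ENL (ME) leukaemic cells, and the comparison libraries were 3 of marrow cells without a fusion (Control). The series also holds 3 libraries of BRD9-NUTM1 (BN1) leukaemia, so 9 of its 12 libraries chose the regions described here. All 4 groups were sorted CD45.2+ bone marrow cells of strain C57BL/6, and the labels give their genotypes as CD45.2(+) MLL-AF9, CD45.2(+) MLL-ENL and CD45.2(+) BRD9-NUTM1 for the leukaemias and CD45.2(+) alone for Control. Each library came from 150000 sorted cells and was made by ATAC-seq, in which a transposase cuts and tags open DNA. The labels state neither how the fusions were introduced, nor the animals' age, nor whether libraries of a group came from separate animals, nor any gate for Control beyond CD45.2. P-values over libraries therefore measure only the spread between these samples, which may be technical.

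Peaks of the 9 lists on chromosomes 1 to 19 that overlapped by at least 1 bp gave 43888 regions after merging. Gained regions are those with a peak in each of the 6 MLL-fusion libraries and in none of the 3 Control libraries. Lost regions are those with a peak in each of the 3 Control libraries and in none of the 6 MLL-fusion libraries. By that rule 352 regions were gained (0.802% of the 43888 regions) and 5315 were lost (12.1%). A further 7016 regions were called in all 9 libraries. For scale, the 12 libraries of the whole series merged into 43905 regions. These calls chose the members, so their numbers are a description and carry no test.

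MLL, encoded by Kmt2a, is a histone methyltransferase that keeps Hox genes active in blood progenitors. Its leukaemic fusions keep the chromatin-binding part of MLL and join it to AF9 or ENL, subunits of complexes that recruit the elongation machinery and the methyltransferase DOT1L. In mouse marrow they are known to hold cells in a progenitor state with high Hoxa and Meis1 activity and to block their maturation. Wild-type marrow holds maturing neutrophils, B cells and erythroid cells, each with its own open enhancers.

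The promoters below are examples of sites that were gained or lost. Only 10.8% of gained and 7.41% of lost regions touched a promoter window. Each line is the RefSeq window (GRCm38.p6) from 250 bases before to 50 bases after a transcription start, 5′ to 3′ on the strand of its gene. Hoxa9 (chr6:52227321-52227620, minus strand), Mpo (chr11:87793534-87793833, plus), Ctsg (chr14:56102525-56102824, minus) and Ms4a3 (chr19:11640802-11641101, minus) overlapped gained regions. S100a9 (chr3:90695672-90695971, minus), Epor (chr9:21963527-21963826, minus), Ltf (chr9:111019042-111019341, plus) and Pou2af1 (chr9:51213440-51213739, plus) overlapped lost regions. The Hoxa9, Epor and Ltf windows overlapped their regions only in part. Capitals mark every match, on either strand, of 5 short motifs. The RUNX motif was spelled TGTGGT, the C/EBP motif TTGCNNAA and the PU.1 motif GAGGAA. The motif bound by the GATA family was spelled AGATAA and that of the TATA box TATAAA. In the Ms4a3 window the PU.1 and C/EBP matches abut, and no 2 of the printed matches overlap.
Hoxa9: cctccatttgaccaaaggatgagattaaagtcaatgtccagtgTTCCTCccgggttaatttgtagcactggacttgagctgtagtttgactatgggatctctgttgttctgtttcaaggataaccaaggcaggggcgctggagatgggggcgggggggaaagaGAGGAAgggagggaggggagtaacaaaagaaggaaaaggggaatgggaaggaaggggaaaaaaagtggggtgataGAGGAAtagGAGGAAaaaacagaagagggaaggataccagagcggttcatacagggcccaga
Mpo: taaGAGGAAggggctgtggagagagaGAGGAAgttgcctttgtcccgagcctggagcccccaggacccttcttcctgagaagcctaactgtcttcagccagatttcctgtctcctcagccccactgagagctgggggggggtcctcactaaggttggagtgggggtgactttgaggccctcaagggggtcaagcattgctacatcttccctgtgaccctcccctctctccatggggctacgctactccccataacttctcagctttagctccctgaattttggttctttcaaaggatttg
Ctsg: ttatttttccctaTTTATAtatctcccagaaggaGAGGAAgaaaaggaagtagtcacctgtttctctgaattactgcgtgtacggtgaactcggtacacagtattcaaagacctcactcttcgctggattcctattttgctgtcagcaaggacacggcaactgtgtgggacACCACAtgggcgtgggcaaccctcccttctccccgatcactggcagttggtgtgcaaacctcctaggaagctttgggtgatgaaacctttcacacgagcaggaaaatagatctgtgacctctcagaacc
Ms4a3: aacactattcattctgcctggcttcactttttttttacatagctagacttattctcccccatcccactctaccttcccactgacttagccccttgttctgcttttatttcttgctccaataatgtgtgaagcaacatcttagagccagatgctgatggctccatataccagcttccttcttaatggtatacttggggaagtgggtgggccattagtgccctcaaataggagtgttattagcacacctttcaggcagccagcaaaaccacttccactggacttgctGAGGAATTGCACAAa
S100a9: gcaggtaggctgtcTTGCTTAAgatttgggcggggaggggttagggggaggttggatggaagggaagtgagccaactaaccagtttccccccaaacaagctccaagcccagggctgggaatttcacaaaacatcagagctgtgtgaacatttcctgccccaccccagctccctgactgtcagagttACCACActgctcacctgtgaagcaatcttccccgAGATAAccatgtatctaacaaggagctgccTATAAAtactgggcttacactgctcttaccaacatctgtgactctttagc
Epor: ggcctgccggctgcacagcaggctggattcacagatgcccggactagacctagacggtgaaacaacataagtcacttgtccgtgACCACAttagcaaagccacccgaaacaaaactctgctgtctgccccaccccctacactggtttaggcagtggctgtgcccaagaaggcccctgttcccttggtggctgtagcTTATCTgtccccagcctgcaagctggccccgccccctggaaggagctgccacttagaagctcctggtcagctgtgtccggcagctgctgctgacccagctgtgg
Ltf: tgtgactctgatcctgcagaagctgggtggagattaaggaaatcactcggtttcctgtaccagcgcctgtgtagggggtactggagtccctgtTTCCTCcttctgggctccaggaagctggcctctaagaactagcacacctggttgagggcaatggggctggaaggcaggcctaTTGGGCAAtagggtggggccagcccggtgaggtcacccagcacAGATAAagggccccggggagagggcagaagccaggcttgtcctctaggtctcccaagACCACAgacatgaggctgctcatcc
Pou2af1: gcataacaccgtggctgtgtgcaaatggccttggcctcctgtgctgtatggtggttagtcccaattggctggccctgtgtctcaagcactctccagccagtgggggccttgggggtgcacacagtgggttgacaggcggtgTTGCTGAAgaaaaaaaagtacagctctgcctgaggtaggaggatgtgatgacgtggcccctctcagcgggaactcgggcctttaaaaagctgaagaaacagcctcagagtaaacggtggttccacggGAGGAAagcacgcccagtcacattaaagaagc

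Each of the 4 gained windows printed held at least 1 PU.1 match and none held a GATA match, while 3 of the 4 lost windows printed held a GATA match. These tallies depend on which windows were printed. The Hoxa3 window, which is not printed and lay inside its gained region, held no match of the 5 motifs. Several lost windows that are not printed, among them Cxcr2, Pax5 and Cd79a, held no GATA match. Over all windows, a GATA match stood in 9.30% of 43 gained windows, 17.4% of 455 lost windows and 4.11% of 6010 windows called in all 9 libraries, against 11.2% of all 31396 RefSeq windows. The shares for RUNX were 11.6% of gained, 21.1% of lost and 11.2% of shared windows, against 16.7% of all windows. For PU.1 they were 34.9%, 30.8% and 25.4% in the same order, against 28.2% of all. The C/EBP motif stood in 14.0%, 10.5% and 7.40%, against 10.9% of all, and the TATA motif in 9.30%, 10.1% and 4.64%, against 13.6% of all. The windows also differed in base composition, whose part in these shares was not tested. Median GC content was 64.7% in gained, 52.3% in lost and 63.7% in shared windows, against 53% of all windows, with a median of 25, 6 and 25 CpG dinucleotides against 7. These matches describe the letters of the windows, and no binding was measured.

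List length differed strongly between the groups and stands behind every call. MA9 lists held 31968 to 33588 peaks, ME lists 8546 to 9663 and Control lists 25541 to 28023. Read numbers were not used here, so sequencing depth is unknown, and a missing peak means that a region was not called, not that it was closed. The MA9 lists were thus the longest and the ME lists the shortest, and the mean of the 6 MLL-fusion libraries minus Control was -6079.67 peaks (exact permutation p = 0.476, two-sided, 84 splits; adjusted p = 0.476 over 3 library values). The share of peaks at gene ends (no more than 1 kb from the start or the end of a protein-coding gene) was 31.3 ± 0.597% in MA9 libraries and 59.8 ± 1.31% in ME libraries, while Control libraries had 36.0 ± 1.05% (SD, n = 3 each). The difference of both fusions from Control was 9.55 percentage points (exact permutation p = 0.476, adjusted p = 0.476). In lists cut to the strongest 8546 peaks each, the gene-end share was 60.1% to 61.3% in the 6 MLL-fusion libraries, against 57.5% to 59.8% in Control, a difference of 2.14 points with no overlap between the groups (exact permutation p = 0.0238, the smallest the 84 splits allow). Median peak width was 329 ± 10.8 bp in MA9 and 330.0 ± 5 bp in ME, against 364 ± 0.577 bp in Control (SD, n = 3 each). That difference of -34.3 bp had the smallest possible exact permutation p, 0.0238, and an adjusted p of 0.0714. In lists of equal length the fusions parted in width: the medians were 832, 749 and 766 bp in MA9 and 350, 357 and 335 bp in ME, against 712, 674 and 712.5 bp in Control (exact permutation p = 0.476 for both fusions against Control).

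Blood markers were called in all 9 libraries, and markers of mature lineages differed between the groups. Peaks at Ptprc (CD45), Spi1 (PU.1) and Coro1a were called in every library. Of 7 B cell markers, 2 had a peak in each MA9 library and 0 in each ME library, against 7 in each Control library. Of 6 erythroid markers, 1 had a peak in each MLL-fusion library, against 6 in each Control library. Of 7 neutrophil markers, 3 had a peak in each MA9 library and 0 to 1 in each ME library, against 7 in each Control library. Promyelocyte markers ran the other way, with 5 of 5 in each MA9 library and 3 to 4 in ME libraries, against 0 to 1 in Control libraries. Of 5 T cell markers, 1 had a peak in each MA9 library and none in ME libraries, against 1 in each Control library. Progenitor markers numbered 3 to 5 of 5 in MA9 and 1 in each ME library, against 2 in each Control library, and macrophage markers 4 of 4 in MA9 and 1 in each ME library, against 3 to 4 in Control. In bulk libraries fewer cells of a type and less open chromatin per cell cannot be told apart.

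The gained set was close to what ME had gained. Of the 9253 regions gained in MA9, whatever ME showed, 3.80% were gained in both fusions. Of the 400 gained in ME, whatever MA9 showed, 88% were. The 352 regions stood well inside the MA9 lists, with a median signal percentile of 74.7, where 100 is the strongest peak of a library. Within each of the 9 libraries signal and peak width had a Spearman correlation of 0.824 to 0.863 over its peaks, so a high percentile also marks a wide peak. The regions gained in MA9 but not in both had a median of 34.6. In ME the 352 regions had a median percentile of 31.4 and quartiles of 19.5 and 45.2. Just outside the rule, 128 regions were called in 5 of 6 MLL-fusion libraries and no Control library, with a median ME percentile of 11.8, and 107 were called in all 6 and in 1 or 2 Control libraries, with a median of 33.1.

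Within the Hoxa cluster, the homeobox genes that MLL maintains, 3 of the 8 genes with any region, the neighbour Evx1 included, had a gained region: Hoxa3, Hoxa7 and Hoxa9. Over all genes the share was 2.48%, 334 of 13468 genes with a region. The Hoxa9 region (chr6:52225190-52227502) covered part of the promoter printed above and had percentiles of 97.5, 97.0 and 90.6 in MA9 and 50.2, 55.7 and 45.0 in ME, with no peak in Control. The Hoxa7 region (chr6:52216821-52218060) reached 92.3, 91.6 and 90.6 in MA9 and 53.5, 53.6 and 56.4 in ME. The Hoxa3 region (chr6:52212561-52213972) reached 92.2, 92.3 and 92.6 in MA9, but 15.0, 24.9 and 0.0468 in ME, so that in ME_3 it stood at the very bottom of the list. Control was not wholly without peaks here. Across the 106 kb of the cluster MA9 libraries had 18, 20 and 20 peaks and ME libraries 7, 5 and 6, against 2, 1 and 1 in Control libraries.

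A region called in all 9 libraries lay between the gained Hoxa7 and Hoxa9 regions, at chr6:52221166-52222731, and so could be tested. Its rank among the 7016 shared regions, from 0 for the weakest to 100 for the strongest, was 89.4, 88.5 and 86.1 in MA9 and 34.0, 59.0 and 41.9 in ME, against 3.68, 0.570 and 0.627 in Control. The mean rank was 66.5 in the MLL fusions, against 1.62 in Control, a difference of 64.9 percentile points (limma adjusted p = 1.34e-06). By signal per base pair of peak the difference was 44.2 points (limma adjusted p = 0.00137). All 6 MLL-fusion libraries ranked it above all 3 Control libraries. Hoxa10 had 5 regions, none of them gained, and the 1 lost region of the list lay 7.17 kb from Evx1.

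**Figure D1:**
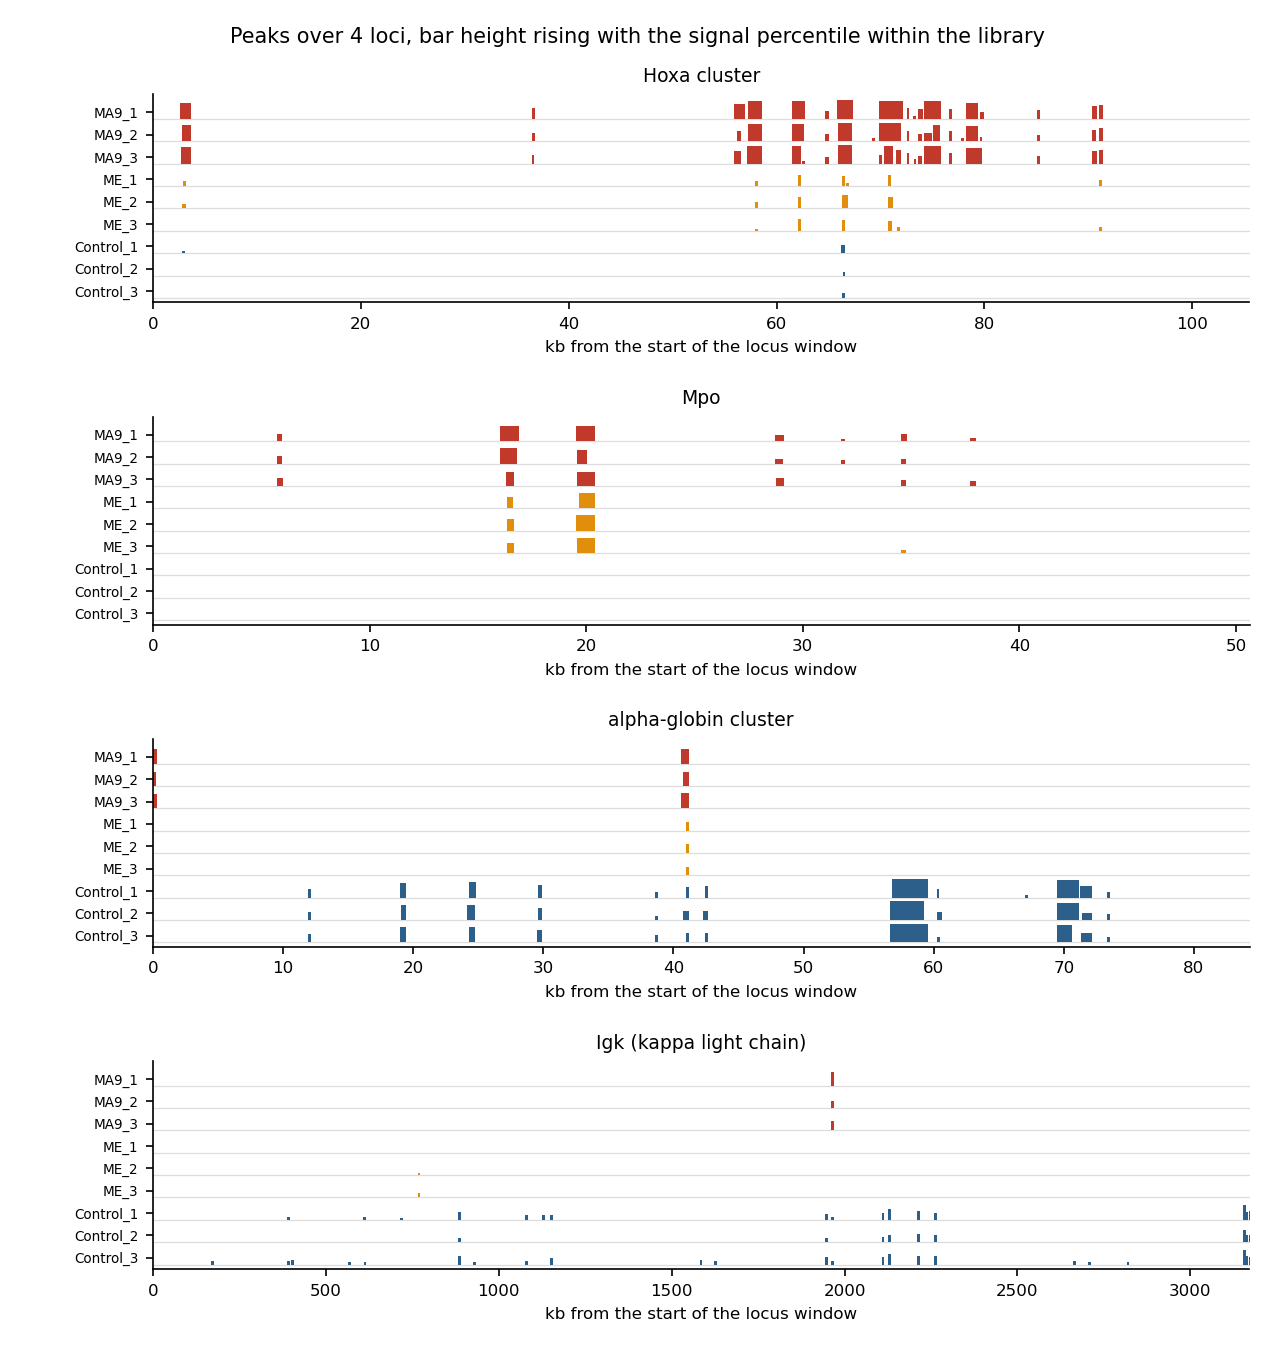
Peaks over 4 loci in the 9 libraries, with kilobases from the start of each window on the x axis and 1 row per library (MA9 red, ME orange, Control blue); bar height rises with the signal percentile within the library. In the Hoxa cluster MA9 libraries had 18 to 20 peaks and ME libraries 5 to 7, against 1 to 2 in Control. In the Mpo window they had 6 to 7 and 2 to 3, against 0. Control libraries had 13 to 14 peaks in the alpha-globin cluster and 13 to 26 at the kappa light chain locus.

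Other genes known as partners or targets of MLL fusions followed the Hoxa genes only in part. Meis1, the homeobox cofactor of Hoxa9, had 10, 8 and 11 of its 11 regions called in MA9 libraries and none in ME libraries, against 2 in each Control library, so it had no gained region. Mecom had 3, 3 and 2 of its 3 regions in MA9 and none in ME or Control. Cdk6, a cell cycle kinase, had 24, 24 and 25 of its 31 regions called in MA9 and 8, 7 and 7 in ME, against 13, 11 and 12 in Control. Of the 23 genes of this list with a region, 1 had a gained region: Jmjd1c, a histone demethylase gene, whose gained region lay 8.496 kb away inside the neighbouring gene Reep3 and had percentiles of 79.9, 79.2 and 79.2 in MA9 and 35.1, 38.5 and 22.6 in ME. The list had more losses than gains, as had the whole set of regions (5315 lost and 352 gained). A lost region lay nearest to 13 of the 23 genes, among them Myc, Mef2c and Satb1, and Mef2c alone had 9 lost regions. The strongest of these lay 179 kb from Myc, 437 kb from Mef2c and 329 kb from Satb1, and the background for losses was 23.1%, 3110 of 13468 genes. With regions within 10 kb only, 5 of 20 genes had a loss, against 15.8% of 11898 genes. The genes of this list have many regions each. Counted over regions, 16.3% of its 258 were lost, against 12.1% of all regions. Within 10 kb it was 9.26% of 54, against 10.3% of all regions within that distance.

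Of the 19 genes for MLL complex members and elongation partners, all 19 had a region, 1 had a gained region and 3 had lost regions. The shares over all genes were 2.48% and 23.1%. Of the list's 92 regions 1.09% were gained and 9.78% lost, against 0.802% and 12.1% of all regions. The gain lay at Ash2l, a core subunit of MLL methyltransferase complexes, with percentiles of 79.2, 80.1 and 79.3 in MA9 and 59.1, 55.6 and 53.4 in ME. Lost regions lay nearest to Mllt6, Aff1 and Mllt3, the gene for AF9 itself, whose region had 33.4, 44.3 and 43.4 in Control.

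Granule genes of promyelocytes, the stage at which neutrophil precursors make their first granules, had gained regions at 4 of 13 genes with a region: Mpo, Prtn3, Ctsg and Ms4a3. Mpo (myeloperoxidase) had a gained region at its promoter (chr11:87793309-87794213) with percentiles of 76.3, 70.3 and 72.0 in MA9 and 77.0, 79.6 and 77.9 in ME. It was 1 of 7 gained regions whose mean percentile was at least as high in ME as in MA9. A second Mpo region, 3.09 kb away, had 77.3, 78.8 and 69.9 in MA9 and 51.5, 54.0 and 45.5 in ME. In the 50.6 kb around Mpo, MA9 libraries had 7, 6 and 6 peaks and ME libraries 2, 2 and 3, against 0 in each Control library. Ctsg (cathepsin G) had a gained region at its promoter, with 76.7, 80.0 and 77.5 in MA9 and 44.2, 45.5 and 37.7 in ME, and another 2.36 kb from the gene, with 95.1, 94.8 and 94.4 in MA9 and 53.4, 45.3 and 44.0 in ME. No Control peak lay within 201 kb of either. The Prtn3 (proteinase 3) region had 83.96, 81.3 and 83.9 in MA9 and 54.0, 48.6 and 52.0 in ME, but a Control peak stood 0.288 kb from it. Ms4a3, a gene of granulocyte and monocyte precursors, had 62.9, 57.7 and 61.5 in MA9 and 27.6, 42.0 and 39.2 in ME at its promoter. Elane (neutrophil elastase) had all 3 of its regions called in each MA9 library and in no ME or Control library. In the same list, lost regions lay nearest to Hdc and Cst7. The list's shares were 30.8% of genes with a gain and 15.4% with a loss, against 2.48% and 23.1% of all genes.

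Stem and progenitor genes had gained regions at 3 of 17 genes with a region, and all 3 lay far from the gene. The region nearest to Kit, the stem cell factor receptor, was 73.8 kb from it and had 88.8, 85.7 and 86.7 in MA9 and 54.8, 54.0 and 38.9 in ME. The region nearest to Gata2 was 27.5 kb away, with 75.7, 76.1 and 72.9 in MA9 and 31.4, 21.5 and 25.2 in ME. The region nearest to Etv6 was 83.4 kb away and lay on the promoter window of Gm52920, with 78.9, 78.0 and 74.7 in MA9 and 24.4, 45.2 and 40.2 in ME. Counting only regions within 50 kb left 1 of the 3 genes, Gata2. Lost regions lay nearest to 6 genes of this list, among them Lmo2 with 7, Lyl1 and Flt3. Over all genes the shares were 2.48% with a gain and 23.1% with a loss. Of the list's 103 regions 2.91% were gained and 12.6% lost, against 0.802% and 12.1% of all regions.

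Among 24 transcription factor genes of blood, all of which had a region, 4 had a gained region and 18 a lost region. The shares over all genes were 2.48% and 23.1%, but these genes have many regions each. Of their 306 regions 1.31% were gained and 18.0% lost, against 0.802% and 12.1% of all regions. The gains lay 19.5 kb from Cebpb, 14.7 kb from Runx3, 2.71 kb from the nearer end of Gfi1b and at the Etv6 region above. The Cebpb region had 94.2, 94.0 and 94.4 in MA9 and 40.6, 45.5 and 38.2 in ME, with a Control peak 1.80 kb away. The Runx3 region had 79.2, 78.5 and 79.2 in MA9 and 33.2, 40.9 and 35.9 in ME, and the Gfi1b region 83.1, 81.0 and 86.1 in MA9 and 21.6, 20.6 and 7.45 in ME. Each of these thus stood above the middle of the MA9 lists and below the middle of the ME lists. ME lists were far shorter, so these percentiles do not rank the fusions against each other. Gata2 was also the only gain, of 5 genes with a region, of the mast cell, basophil and eosinophil list. Gains in other lists lay 81.1 kb from Tet2, a DNA demethylation enzyme gene (95.8, 95.9 and 96.2 in MA9; 60.2, 60.4 and 33.1 in ME), and 89.8 kb from Ccnd1, the cyclin D1 gene (64.0, 61.9 and 65.2 in MA9; 21.6, 14.7 and 4.28 in ME). No gained region lay nearest to a gene of the B cell, erythroid, megakaryocyte, dendritic cell, T and NK cell, neutrophil maturation, interferon response, cytokine receptor, housekeeping or silent gene lists. With a gain at only 2.48% of all genes, absences from lists this short are no result about them. In lists of equal length the B cell, erythroid, interferon response, cytokine receptor and housekeeping lists did have gains.

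The strongest gained regions were not those of the lists. By the mean of the MA9 and ME percentiles the first was 2.61 kb from Dyrk1a, a protein kinase gene, at chr16:94698126-94699363, with 98.9, 99.0 and 99.1 in MA9 and 97.1, 97.0 and 97.5 in ME. No Control peak lay within 65.9 kb of it. The next 9 were nearest to Actr3, Ano6, Zdhhc14, Lonrf1, LOC108167320, Akap5, Birc6, Plpp6 and Srpr, and 9 of these 10 lay outside the 1 kb window of a gene end. Of the 10, ME ranked LOC108167320 highest relative to MA9, with 87.1, 87.0 and 86.5 in MA9 and 96.2, 96.2 and 96.6 in ME. Nrg4, which encodes a neuregulin, was the only gene with 3 gained regions, and 17 genes had 2 or more. Its promoter region had 95.6, 85.6 and 86.5 in MA9 and 47.7, 51.7 and 40.2 in ME.

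**Figure D2:**
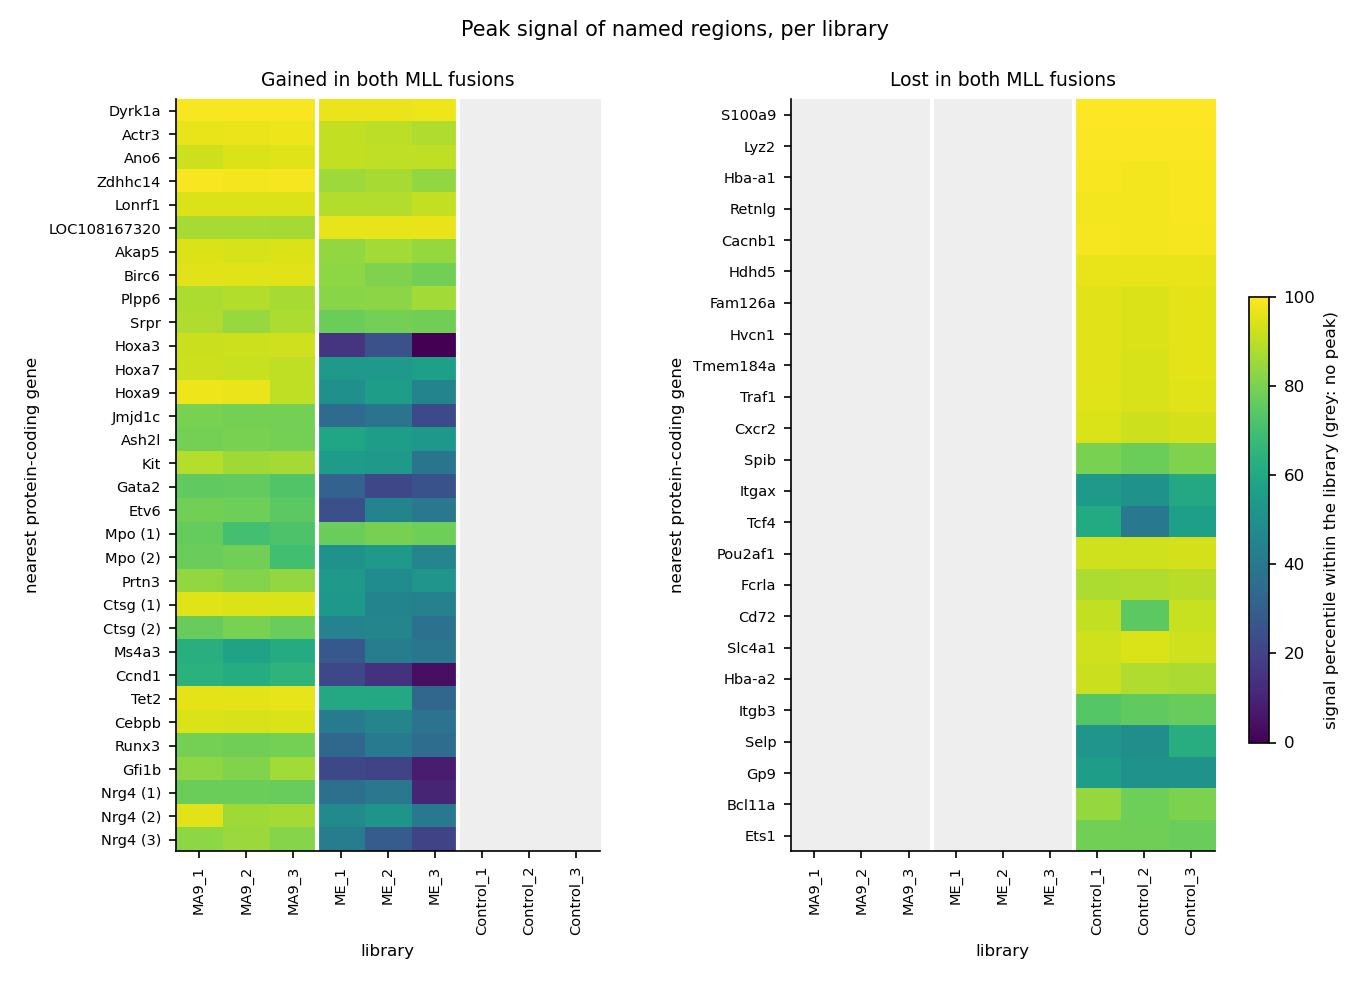
Signal percentile within each library (colour, 0 to 100; grey, no peak) for named gained regions (left) and named lost regions (right), 1 row per region by nearest gene and 1 column per library, MA9, ME and Control from left to right. The gained rows are grey in Control and the lost rows grey in MA9 and ME by the rule that chose them. Most gained regions had a higher percentile in MA9 than in ME. ME lists are far shorter, so this does not rank the fusions against each other. Mpo (1) was an exception, at 76.3, 70.3 and 72.0 in MA9 and 77.0, 79.6 and 77.9 in ME.

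Most gained regions lay away from promoters. Of the 352, 38 (10.8%) touched a RefSeq promoter window, 146 lay inside a gene and 168 between genes, with a median distance of 14.6 kb to the nearest gene end. Of the lost regions 394 (7.41%) touched a promoter window, 2958 lay inside a gene and 1963 between genes, with a median distance of 11.6 kb. Of the regions called in all 9 libraries, 61.0% touched a promoter window. Median merged width was 539 bp for gained, 349 bp for lost and 982.5 bp for shared regions. Another gained region lay within 50 kb of 10.2% of the gained regions. Another lost region lay within 50 kb of 67.1% of the lost regions, which are far more numerous. The median gap to the nearest Control peak was 29.8 kb for gained regions, and the median gap to the nearest MLL-fusion peak was 6.59 kb for lost regions. Of the gained regions 11 lay over 500 kb from any gene end. Gains on promoter windows outside the lists included Igf2bp3, an RNA-binding protein gene of fetal tissues (mean percentile 92.9 in MA9), Hacd1 (92.1), Rdx (89.6), Mt2, a metallothionein gene (81.7), Jag1, a Notch ligand gene (79.0), and Nr4a2 (70.9); these 6 were picked after their values were seen.

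BN1 libraries, which took no part in choosing the regions, were then looked up in the 352 gained regions. A peak was called in 45 of them in BN1_1, 28 in BN1_2 and 26 in BN1_3. All 3 BN1 libraries had a peak in 14 (3.98%), exactly 2 in 14, exactly 1 in 29 and none in 295. Of all 7475 regions called in the 6 MLL-fusion libraries, 32.4% were called in all 3 BN1 libraries. Of the 7123 of these that also had a Control peak, the share was 33.8%. BN1 lists are short and keep mainly strong regions, so the shares were also read by ME signal, in 3 equal classes of the 7475 regions. In the lowest class 1.20% of 251 gained regions were called in all 3 BN1 libraries, against 2.90% of those with a Control peak. In the middle class it was 9.20% of 87, against 18.9%, and in the highest 21.4% of 14, against 76.3%. The gained regions thus had the smaller share in each class, by a difference that was not tested since the 3 BN1 libraries form 1 group. The classes do not match the 2 sets on position. Within 1 kb of a gene end lay 15.9% of gained regions, against 67.4% of regions called in all 9 libraries. Of BN1 peaks 64.2% to 65.1% lay there, and the part of position in these shares was not tested.

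Among the 14, the region 0.646 kb from LOC108167320 had percentiles of 99.6, 99.7 and 99.7 in BN1, higher than in any MLL-fusion library. The intragenic Ano6 region followed with 87.6, 81.6 and 89.1 in BN1, and the region 15.3 kb from Cdh5, the VE-cadherin gene, had 72.3, 88.2 and 76.7. The other 7 of the 10 strongest lay nearest to Anxa1, Gm8300, Fndc10, Trim2, Gypc, Pigt and Bin1. None of the Hoxa3, Hoxa7 and Hoxa9 regions had a peak in any BN1 library. The Mpo, Prtn3 and Ctsg regions had a peak in BN1_1 alone, at 87.4 for the Mpo promoter region. Of the 5315 lost regions, BN1_1 had a peak in 2 and BN1_2 and BN1_3 in 0. BN1 lists held 3011 to 4258 peaks, and lost regions were mostly weak, with a median Control percentile of 35.9. No share of comparable regions was computed here, so these counts do not tell whether BN1 shared the losses.

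**Figure D3:**
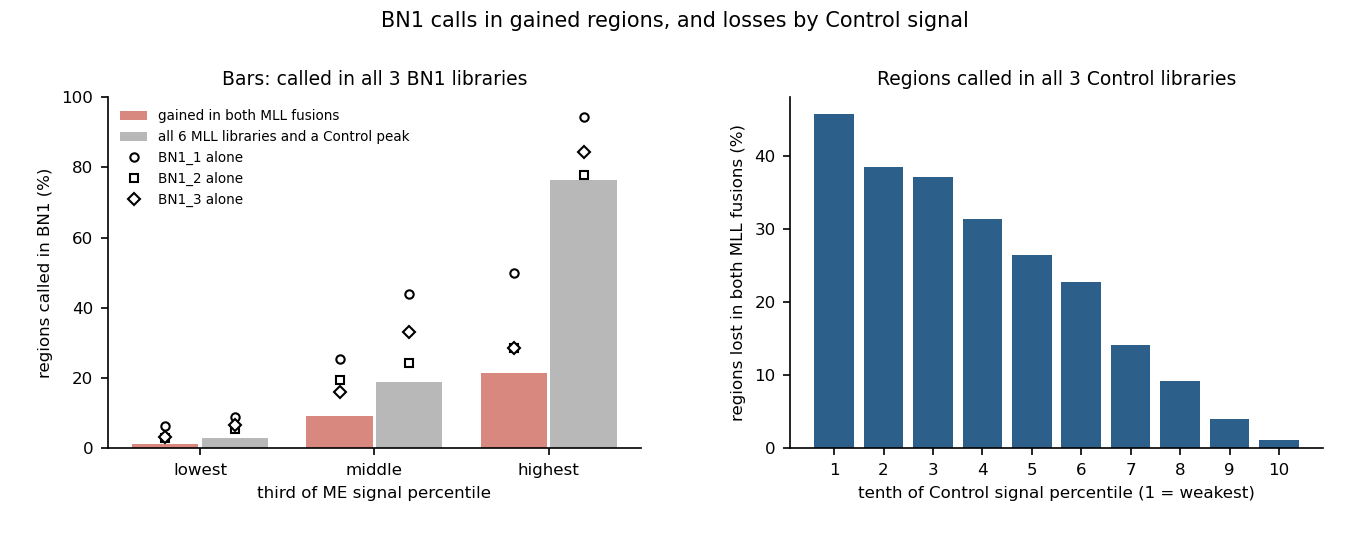
Left, percentage of regions called in BN1 by class of ME signal, for gained regions (red) and for regions called in all 6 MLL-fusion libraries with a Control peak (grey); bars give calls in all 3 BN1 libraries and symbols each BN1 library alone. Right, percentage of the regions called in all 3 Control libraries that were lost in both fusions, by class of Control signal, from 45.8% in the weakest to 1.13% in the strongest.

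Losses were nearly those of MA9. Of the 5317 regions lost in MA9, 99.96% were lost in both fusions, but of the 14648 lost in ME, 36.3% were. A further 7996 regions were called in all 3 Control and all 3 MA9 libraries and in no ME library, while 1 region was called in all Control and all ME libraries and in no MA9 library. Of the 23046 regions called in all 3 Control libraries, 23.1% were lost. That share was 45.8% in the weakest of 10 equal classes of Control signal and 1.13% in the strongest. Lost regions had a median Control percentile of 35.9, against 55.8 for all regions called in Control. Just outside the rule, 617 regions were called in all 3 Control libraries and 1 MLL-fusion library, with a median of 35.6.

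The lost regions with the highest Control signal lay at genes of neutrophils, macrophages and erythroid cells, among others. The S100a9 region (chr3:90691227-90696108), over a calprotectin gene of neutrophils, stood at 99.96, 99.97 and 99.97 in the 3 Control libraries and had no peak in MA9 or ME. The Lyz2 region (lysozyme of neutrophils and macrophages; chr10:117274735-117278775) had 99.4, 99.2 and 99.6 in Control. The Hba-a1 region (alpha-globin) had 99.2, 98.1 and 98.9, and the Retnlg region (a neutrophil resistin-like protein) 98.1, 98.3 and 99.2. The other 6 of the strongest 10 lay nearest to Cacnb1, Hdhd5, Fam126a, Hvcn1, Tmem184a and Traf1.

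Genes of mature lineages had lost regions in larger shares than the 23.1% of all genes. At least 1 region was lost at 18 of 20 erythroid genes, at each of the 7 megakaryocyte genes that had a region, at 13 of 17 genes of neutrophil maturation, at 7 of 10 genes of dendritic cells and at 16 of 19 genes of B cells. Of 24 blood transcription factor genes, 18 had a lost region, among them Ets1 with 12, Ikzf1 with 7, and Bcl11a with 6, but these genes have many regions each. Shares near or under the background were found for housekeeping genes, 2 of 19, interferon response genes, 1 of 10, T and NK cell genes, 2 of 11, and monocyte and macrophage genes, 3 of 16. Of 16 cell cycle and survival genes 6 had a loss, of 20 cytokine receptor and signalling genes 9, of 11 Tet and DNA methylation genes 3, of 5 mast cell, basophil and eosinophil genes 1, and of 6 genes silent in blood 3. Counted over regions rather than genes, 67.8% of 87 B cell regions, 60% of 70 erythroid regions and 35.6% of 73 neutrophil regions had been lost, against 12.1% of all regions. For the megakaryocyte list it was 22.9% of 48 regions, and for the blood transcription factors 18.0% of 306.

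Among B cell genes, Ebf1, the factor that starts the B cell programme, had 11 of 12 regions lost, and none of its 12 regions had a peak in any MA9 or ME library. Pax5 had 6 of 9 lost and Bach2 14 of 23. The Pou2af1 (OCA-B) promoter region had 92.9, 92.8 and 93.6 in Control, Fcrla 87.7, 88.0 and 89.3, and Cd72 90.9, 74.8 and 91.8. Igll1, a surrogate light chain gene, Rag1 and Bank1 had regions and no loss. Over the kappa light chain locus MA9 libraries had 1 peak each and ME libraries 0, 1 and 1, against 21, 13 and 26 in Control, and 12 regions there were lost. The 16 lost regions assigned to Rpia, the most for any gene, lie beside that locus, since immunoglobulin segments are not among the protein-coding genes used. At the lambda locus MA9 had 2 and ME 1 peak in each library, against 9, 8 and 9 in Control, with 7 regions lost and 1 gained. The heavy chain locus differed between the fusions: MA9 libraries had 39, 33 and 34 peaks and ME libraries 1 each, against 24, 24 and 28 in Control, with 2 regions lost and 1 gained. These loci were chosen after their values were seen.

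Among erythroid genes, Epor (the erythropoietin receptor) had both of its regions lost and Sptb (beta-spectrin) 3 of 3. The Slc4a1 (band 3) region had 92.8, 94.1 and 92.7 in Control. In the 84.3 kb around the alpha-globin genes MA9 libraries had 2 peaks each and ME libraries 1, 2 and 1, against 14, 13 and 13 in Control, and 11 of 14 regions were lost. Hba-a1 and Hba-a2 are near-identical copies, so which of them the reads came from is uncertain. Klf1, the erythroid Krüppel-like factor, kept peaks in every library beside 2 lost regions. Its region called in all 9 libraries ranked 22.7 points higher in the MLL fusions (limma adjusted p = 0.000677), and 30.4 points higher per base pair of peak. Of 4 such erythroid regions at gene ends, 3 ranked higher and 0 lower by signal, and 1 higher and 2 lower per base pair. Tfrc and Slc25a37, for iron uptake, had no lost region.

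Among neutrophil genes, Ltf (lactoferrin) had 3 of 4 regions lost, Cxcr2 3 of 4, Mmp9 4 of 9 and Padi4 3 of 7. The Cxcr2 region had 94.4, 92.4 and 93.6 in Control. Camp, Mmp8, Ly6g and Fpr2 had regions and no loss. Among megakaryocyte genes the strongest lost regions belonged to Itgb3 (73.5, 75.6 and 76.6 in Control), Selp (52.3, 49.5 and 62.3) and Gp9 (55.6, 50.8 and 50.9), which encode platelet adhesion proteins. Among dendritic cell genes they belonged to Spib (79.8, 77.7 and 80.5), Itgax and Tcf4.

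Of 919 miRNA hairpins on chromosomes 1 to 19, 13 lay within 1 kb of a lost region and 0 within 1 kb of a gained one. With 5315 lost and 352 gained regions, these 2 counts do not show a difference between the sets. The pair Mir144 and Mir451a, induced in red cell precursors, had 0 peaks in each MA9 and ME library, against 3 in each Control library in a 10.2 kb window on chromosome 11. All 3 of these regions were lost, and the stronger (chr11:78073423-78074695) had a mean Control percentile of 84.9. The RefSeq mature sequences of this erythroid pair (GRCm38.p6, chr11:78073010-78073207, plus strand) are shown since the locus follows the globin genes, with the seed, bases 2 to 8, in capitals.
miR-144-5p: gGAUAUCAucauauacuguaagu
miR-144-3p: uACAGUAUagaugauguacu
miR-451a: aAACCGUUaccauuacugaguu

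No 2 of these 3 miRNAs share a seed. Mir451b, on the opposite strand of Mir451a, lies at the same place and cannot be told apart by accessibility.

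List length was then equalised; for the gene lists this alternative was chosen after seeing the data. With the strongest 8546 peaks of each library, 1004 regions were gained and 1582 lost. Of the 352 gained regions 143 (40.6%) overlapped a region gained at equal length. Of the 5315 lost regions 417 (7.85%) overlapped a region lost at equal length, as many as had a peak in all 3 shortened Control lists. Gained regions had a peak in all 3 shortened MA9 lists in 158 cases and in all 3 ME lists in 302. Losses again touched the mature lineages: 11 of 13 B cell, 10 of 14 erythroid and 9 of 14 neutrophil genes with a region had a loss, against 15.2% of 8555 genes. They were not confined to those lists. A loss was also found at 4 of 8 stem and progenitor genes and 5 of 9 Tet and DNA methylation genes. It was 8 of 22 for blood transcription factors, 3 of 8 for interferon response and 3 of 9 for monocyte and macrophage genes, but 1 of 19 for housekeeping genes. Hoxa3, Hoxa7 and Hoxa9 were again the 3 Hoxa genes with a gain, of 6 with a region, against 11.0% of all genes. In promyelocyte granules the gains were at Prtn3 and Ctsg, 2 of 9, and losses reached 3 of 9. Losses in the megakaryocyte list came to 2 of 5, and in the Hox cofactor list to 3 of 19, near the background. Gains were not confined to the Hoxa and promyelocyte lists. They reached 6 of 22 blood transcription factor, 4 of 18 MLL complex and elongation, and 4 of 17 cytokine and signalling genes. It was 3 of 9 for monocyte and macrophage genes and 2 of 8 for stem and progenitor genes. Gains were fewer at B cell (1 of 13), erythroid (1 of 14), housekeeping (1 of 19) and neutrophil genes (0 of 14).

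**Figure D4:**
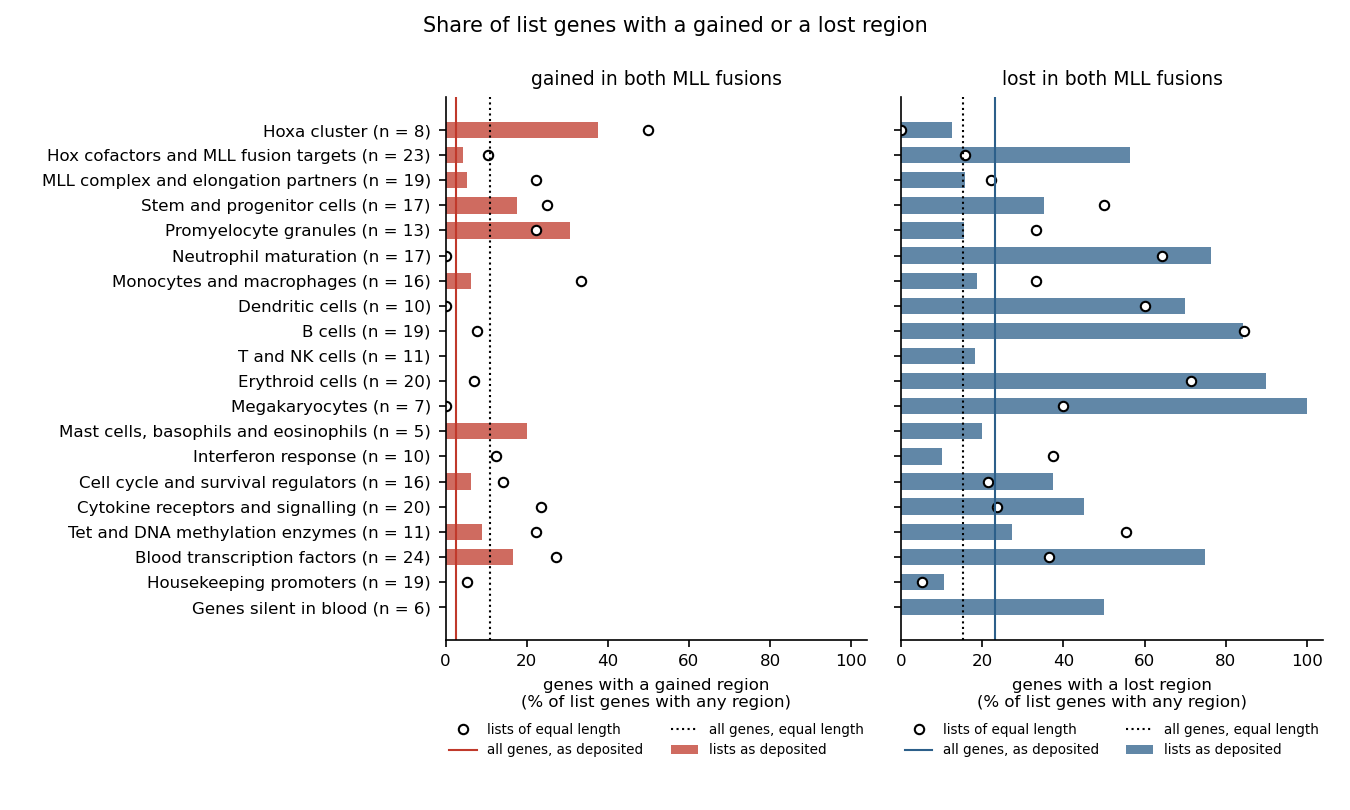
Percentage of the genes of each list with a region that had a gained (left) or lost (right) region; bars, lists as deposited; circles, lists of equal length, for lists with at least 5 such genes; lines, the same share over all genes. B cell, erythroid and neutrophil losses (84.2%, 90% and 76.5%) stand above the line of 23.1% in both settings.

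Regions called in all 9 libraries were neither gained nor lost, so their signal was free to be tested. Within each library the 7016 regions were ranked by signal from 0 to 100 percentile points, which does not depend on list length, and the mean of the MA9 and ME groups was compared with Control by limma. At an adjusted p of 0.05, 2749 regions (39.2%) ranked higher and 2722 (38.8%) lower in the MLL fusions; 5556 passed at an unadjusted p of 0.05. All 6 MLL-fusion ranks lay above all 3 Control ranks in 2042 regions and below them in 2096, together 59% of regions. Ranks are relative, so a region can move when others move. The median absolute difference was 12.9 points with a median standard error of 2.29. A difference over 50 points was rarer, 135 higher and 126 lower. Since signal goes with width, the regions were also ranked by signal per base pair of peak, an alternative chosen after seeing the data. It called 1657 higher and 1577 lower. Of the 2749 regions higher by signal it called 1093 higher and 315 lower, and of the 2722 lower by signal 949 lower and 293 higher.

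The largest higher rank lay on the shared promoter region of Zbtb1 and Zbtb25, both zinc finger genes. Its ranks were 98.8, 98.5 and 97.6 in MA9 and 96.1, 95.6 and 95.8 in ME, against 9.69, 7.84 and 5.12 in Control. The difference was 89.5 ± 1.36 points (SE; limma adjusted p = 5.40e-10). A region 5.51 kb from Ptpn11, the SHP2 phosphatase gene, ranked at 93.4, 91.9 and 93.1 in MA9 and 86.0, 86.1 and 85.3 in ME, against 1.11, 1.05 and 0.356 in Control. Its difference was 88.5 ± 1.40 points (limma adjusted p = 5.84e-10). The Cebpb promoter, for a factor of granulocyte and monocyte genes, ranked at 96.6, 96.9 and 95.9 in MA9 and 83.4, 80.3 and 81.1 in ME, against 12.8, 13.1 and 6.41 in Control. The Mt1 promoter, a metallothionein gene beside the gained Mt2 promoter, ranked at 83.7, 76.4 and 75.8 in MA9 and 87.7, 88.6 and 88.2 in ME, against 5.96, 6.10 and 6.44 in Control. The other 6 of the 10 were nearest to Btbd9, Fgf1, Lbp, Gpr160, Ran and Klf9, with differences of 76.1 to 84.7 points. Per base pair of peak all 10 were still called higher, by 29.3 points at Ran to 97.2 at Btbd9, with Zbtb25 at 40.2.

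The largest lower rank lay at the promoter of C5ar1, the complement C5a receptor of myeloid cells, with 3.38, 3.58 and 3.68 in MA9 and 2.74, 4.95 and 1.42 in ME, against 90.4, 93.9 and 91.9 in Control. The difference was -88.8 ± 1.75 points (limma adjusted p = 1.38e-09). Tnfaip2, a gene induced by tumour necrosis factor, ranked at 14.5, 14.9 and 15.1 in MA9 and 1.24, 1.40 and 1.61 in ME, against 92.1, 93.1 and 92.2 in Control. The region nearest to Cd69, an activation marker of lymphocytes, ranked at 4.18, 2.75 and 7.67 in MA9 and 16.1, 8.64 and 10.3 in ME, against 81.0, 95.0 and 96.6 in Control. Coro1a, an actin-binding protein of leukocytes, ranked at 56.6, 44.6 and 46.7 in MA9 and 3.56, 1.24 and 0.399 in ME, against 99.7 in each Control library. The other 6 were nearest to Zfp36l2, Grk2, Wasf2, Frmd8, S100a2 and Osm, with differences of -82.0 to -75.3 points. These 20 were taken from regions in which no MLL-fusion library overlapped Control. Per base pair of peak, 3 of the 10 lower regions were still called lower, Coro1a by -30.0, S100a2 by -27.4 and Zfp36l2 by -32.4 points. C5ar1 differed by 1.91 points on that scale (limma adjusted p = 0.901), Cd69 by 13.7 (adjusted p = 0.116) and Tnfaip2 by -10.7 (adjusted p = 0.118).

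**Figure D5:**
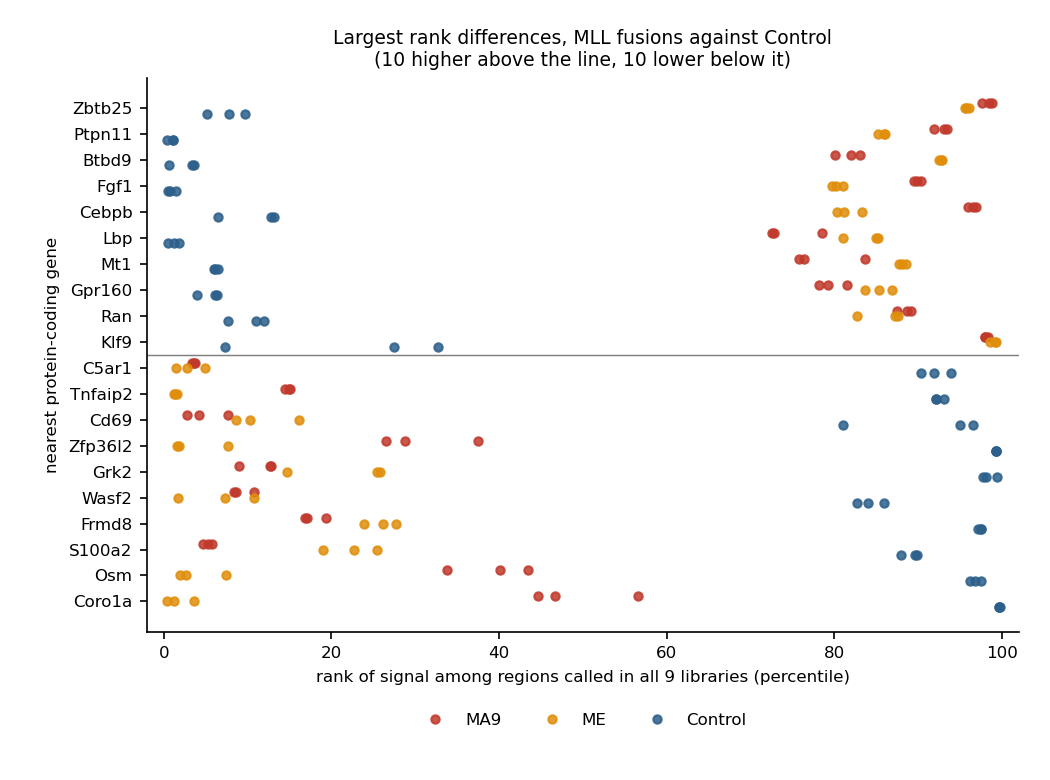
Rank of signal (percentile, x axis) among the 7016 regions called in all 9 libraries, for the 10 largest higher and 10 largest lower differences; each point is a library of MA9 (red), ME (orange) or Control (blue). The MLL-fusion points of Zbtb25 lie between 95.6 and 98.8, against 5.12 to 9.69 in Control, and those of C5ar1 between 1.42 and 4.95, against 90.4 to 93.9, a direction not seen per base pair of peak (difference of 1.91 points).

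By list, regions at gene ends were read against 1848 higher and 1843 lower of 4728 shared gene-end regions, with a median difference of 0.0891 points. Of 14 for the MLL complex and its elongation partners 9 ranked higher and 3 lower, with a median of 9.29 points. The Kmt2a region itself averaged 71.6 in the MLL fusions, against 46.6 in Control, and Aff1, Dot1l and Mllt1 were higher by 35.6, 28.9 and 31.1 points, each with all 6 MLL-fusion libraries above Control. The promoter of Men1, the menin gene, differed by 8.74 points with overlapping libraries, and the Map4k2 promoter at its other end by -41.1. Among interferon response genes, the regions of Irf9 and Stat2 ranked lower, with differences of -51.0 and -19.5 points. Of 13 blood transcription factor regions 5 ranked higher and 7 lower. Cebpa averaged 87.0 in the MLL fusions, against 20.5 in Control, and Ikzf1 54.3, against 20.8, whereas Fos averaged 39.0, against 93.9, and Spi1 85.0, against 99.0. Of 12 cytokine and signalling regions 6 ranked higher and 3 lower, among them Spry2, an inhibitor of receptor tyrosine kinase signals, at 62.7, against 2.35, and Dusp6, an ERK phosphatase, at 48.5, against 92.7. Of 4 Tet and DNA methylation regions 3 ranked higher and 1 lower, with Tet2 at 62.5, against 26.9. Housekeeping regions split 7 higher and 6 lower of 20, with B2m, the invariant chain of MHC class I, at 38.9, against 95.1. Several of these calls changed with the measure. By signal per base pair of peak, of the 14 MLL complex and elongation regions 3 were higher and 1 lower, and of the 13 blood transcription factor regions 3 were higher and 0 lower. On that scale Kmt2a, Mllt1 and Spry2 were still called higher, by 29.6, 31.3 and 27.1 points, and Irf9 and B2m lower, by -18.1 and -24.2. The calls at Stat2, Aff1, Dot1l, Tet2, Fos, Spi1, Ikzf1, Cebpa and both regions printed for Men1 and Map4k2 were not made, with Ikzf1 at -11.0 and Cebpa at -9.05, and Dusp6 was called higher, by 43.4.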

How the data were processed

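Each ATAC-seq library had 1 deposited peak list (narrowPeak). Genrich, deepTools 3.5.1, Picard 3.2.0 and Bowtie2 2.5.4 are named in the submitters' processing notes, as is the build GRCm38 (mm10); their options are not given in the sources used here. The authors' signal column was at least 200.0 for every peak and was used as a percentile within a library. What it measures is not given in the sources used here; it grew with peak width, so percentiles and ranks hold width as well as height. The deposited −log10 p column entered 1 alternative, the deposited −log10 q column was read only for its minimum, and the deposited score was not used. None of these is on a common scale between libraries, and read numbers were not used here.

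Peaks on chromosomes 1 to 19 were merged and assigned to the RefSeq protein-coding gene (GRCm38.p6) with the nearest end. A marker had a peak when one overlapped the gene extended by 1 kb. The members and the 20 gene lists were chosen with earlier results of these data known. Library values were compared by exact permutation tests (84 splits of 6 against 3; 20 splits of 3 against 3, which cannot go below p = 0.1). Ranks were compared with limma 3.58.1 (trend) in R 4.3.3, with Benjamini-Hochberg adjustment over all 7016 regions. On simulated data for that comparison (7016 regions) it called 90% of 50 regions raised by 1 log2 unit and 0.161% of unchanged regions. It called 92% of those lowered by 1 unit, and 56% and 68% of those raised and lowered by 0.5. The simulation changed only 200 regions, in both fusions alike and with independent noise. Far more regions were called in the data, so these shares do not give its error rate.

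Named genes were the 10 strongest gained and lost regions, every list gene with a gain, up to 3 strongest losses a list, the 10 largest separated rank differences each way, genes with 3 or more gains and the 10 gained regions strongest in all 3 BN1 libraries. Replicate numbers did not pair the samples. The genome sequence was not given, so motifs were searched in promoter windows only. Alternatives were stricter peaks (signal of at least 400), an overlap of 100 bp, lists of equal length, each fusion alone, libraries left out in turn and other rank measures, among them signal per base pair of peak. A few genes that meet these rules are not reported here.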

Additional observations from a re-analysis of the deposited data

Results flagged for a closer look

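Several values differed between the 2 fusions under the same contrast with Control. MA9 lists held 5590.33 peaks more than Control on average and ME lists -17749.7, with every MA9 library above and every ME library below all Control libraries. The share of peaks at gene ends differed from Control by -4.67 percentage points in MA9 and 23.8 in ME. In lists of equal length both fusions lay above Control, by 1.77 points in MA9 and 2.51 in ME, so this opposition was not seen there. Over the heavy chain locus MA9 libraries had 10 peaks more than Control on average, and for ME the difference was -24.3. These opposite directions were not tested as a difference of differences, and 3 libraries against 3 cannot go below an exact p of 0.1.

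Among the 7016 regions called in all 9 libraries, 4178 (59.5%) differed in rank between MA9 and ME (limma adjusted p of 0.05), 1635 higher and 2543 lower in MA9. Of the 20 named regions, 14 were among them, all on the same side of Control in both fusions. MA9 minus ME was 47.6 points at Coro1a, 35.1 at Osm, 27.3 at Zfp36l2, 14.9 at Cebpb, 13.4 at Tnfaip2, 9.61 at Fgf1 and 7.04 at Ptpn11. It was -17.1 at S100a2, -11.0 at Btbd9, -10.5 at Grk2, -9.52 at Mt1, -9.06 at Lbp, -8.16 at Frmd8 and -5.65 at Gpr160.

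Peaks on unplaced sequences, left out of the regions, averaged 45.7 in MA9 and 5 in ME, against 42 to 44 in Control libraries.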

How the results depend on the processing

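The count of gained regions was 352, and became 157 with peaks of a signal of at least 400, 1004 in lists of equal length and 9253 with the MA9 libraries alone; it ran from 353 to 446 with a library left out, the highest without ME_3. The count of lost regions was 5315, and became 2885, 1582 and, with the ME libraries alone, 14941; it ran from 5315 to 6238 with a library left out. Of the 352 gained and 5315 lost regions, 86 (24.4%) and 2011 (37.8%) were called so again at a signal of at least 400. ME alone merged with Control gave 434 gained regions. The share of gained regions called in BN1 became 16.2% for a call in at least 1 BN1 library and ran from 4.83% to 5.97% with a BN1 library left out. The peak number difference ran from -8608.33 to -3599.93 with a library left out. The gene-end difference became 2.14 points in lists of equal length (exact permutation p = 0.0238) and ran from 6.41 to 12.5 with a library left out. The width difference became -134.667 bp at equal length (exact permutation p = 0.476) and ran from -36.7 to -32.7 bp with a library left out; without any 1 Control library the smallest exact p was 0.0714. Regions differing in rank numbered 5471, ran from 5114 to 5479 with a library left out, and came to 3533 where all 9 signals were at least 400, since fewer regions were tested. Ranked by signal per base pair of peak, an alternative chosen after seeing the data, 3234 regions differed. On that scale 4 of the 20 named differences changed sign, to 1.91 points at C5ar1, 13.7 at Cd69, 15.4 at Wasf2 and 9.67 at Frmd8, and those of Tnfaip2, Grk2 and Osm were no longer called. MA9 against Control changed sign at equal length, to 1.77 points for the gene-end share and 82.8 bp for the width. The cause of the other changes was not tested. No difference of both fusions from Control in library values reversed. Replicate numbers did not pair the samples: deviations of same-numbered libraries correlated at -0.0176 to 0.0614, and the replicate block gave 5411 regions. Of 325 recomputed values of named rank differences, 318 kept direction and side of the threshold, and the other 7 are those above. Of 120 recomputed list counts 80 stayed within 1.5 times and 40 moved, 26 of them at equal length. Depth is unknown, so a missing peak may be closed chromatin or too few reads, and the short ME lists limit the gained set most, as MA9 calls do the lost set.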
